A study of Mus musculus with 2 samples.

Results

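The 8 genes described here belong to cholesterol synthesis and its control: *Hmgcs1*, *Idi1*, *Fdps*, *Fdft1*, *Sqle*, *Cyp51*, *Insig1* and *Srebf2*. They were taken by name from the 54146 genes of the count tables, through their Ensembl identifiers, and all 8 were found. The data are 2 inDrop single-cell RNA-seq libraries of untreated mouse embryonic stem (ES) cells, 1 labelled wild-type (WT_ES) and 1 labelled *Lin28a* knockout (AKO_ES). The cells were described as derived from the inner cell mass and were grown for 2 days in LIF/2i medium on mouse embryonic fibroblast (MEF) feeders. Per the methods, the wild-type cells were a transfected clone without the knockout and the knockout cells a single CRISPR/Cas9 clone, so each genotype is 1 clone, 1 culture and 1 library. In inDrop, each cell is enclosed in a droplet whose primers carry a barcode of that cell and a unique molecular identifier (UMI), so that copies of 1 molecule are counted once.

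Cells make cholesterol from acetyl-CoA through the mevalonate pathway, isoprenoid intermediates, squalene and lanosterol. When sterols in the membrane of the endoplasmic reticulum are low, the transcription factor SREBP2, the product of *Srebf2*, is carried to the Golgi by SCAP, cut, and sent to the nucleus, where it binds sterol regulatory elements of the pathway's genes. When sterols are high, INSIG proteins hold SCAP back, so the pathway is under feedback, and dividing cells such as ES cells use it to supply new membrane.

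RefSeq promoter windows of the GRCm38.p6 build were held for 5 of the 8 genes, *Hmgcs1*, *Idi1*, *Cyp51*, *Insig1* and *Srebf2*. The stretches before the start of 4 of them are shown here so that they can be read beside the pattern over cells described below. Capitals mark matches, on either strand, to a sterol regulatory element searched as TCACNCCAC or more loosely as TCACCNCA, a CCAAT box, an E-box searched as CACGTG and a GC box searched as GGGCGG. The motifs were chosen with the sequences in view. The stretches are chr13:119690101-119690350 on the plus strand, chr5:4104747-4104947 on the minus strand, chr5:28071162-28071362 on the plus strand and chr15:82147019-82147180 on the plus strand, in that order.
Hmgcs1: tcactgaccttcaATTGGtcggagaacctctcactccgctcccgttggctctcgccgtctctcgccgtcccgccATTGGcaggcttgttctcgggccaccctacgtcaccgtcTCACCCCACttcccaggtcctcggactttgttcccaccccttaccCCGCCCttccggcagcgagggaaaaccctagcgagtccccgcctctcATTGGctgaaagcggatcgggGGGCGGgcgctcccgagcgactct
Cyp51: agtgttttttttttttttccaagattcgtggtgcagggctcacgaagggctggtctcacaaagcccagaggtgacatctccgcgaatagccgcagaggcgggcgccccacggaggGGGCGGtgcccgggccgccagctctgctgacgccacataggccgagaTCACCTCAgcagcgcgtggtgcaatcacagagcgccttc
Insig1: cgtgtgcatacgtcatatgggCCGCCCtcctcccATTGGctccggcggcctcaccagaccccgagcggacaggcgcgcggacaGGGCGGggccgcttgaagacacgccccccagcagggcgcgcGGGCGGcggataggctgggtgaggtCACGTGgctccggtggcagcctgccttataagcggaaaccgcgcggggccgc
Srebf2: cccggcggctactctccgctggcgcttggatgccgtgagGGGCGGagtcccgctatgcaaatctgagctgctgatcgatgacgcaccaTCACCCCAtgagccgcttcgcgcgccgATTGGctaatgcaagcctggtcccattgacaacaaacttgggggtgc

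The stricter sterol element lay in the *Hmgcs1* window, 137 bases before the RefSeq start, where the looser one overlapped it, and in 1.05% of 32851 mouse windows of 250 bases. The looser element lay in 3 of the 5 windows, those of *Hmgcs1*, *Cyp51* (88 bases before the start) and *Srebf2* (162 bases before the start), and in 3.61% of all windows. A CCAAT box lay in all 5 windows and in 33.8% of all windows, and a GC box in all 5 and in 32.7%. The E-box lay in the *Insig1* window and in 6.02% of all windows. The windows ran up to the RefSeq start, while the printed stretches of *Cyp51*, *Insig1* and *Srebf2* stop before it, so the CCAAT box of *Cyp51* and further GC boxes of *Srebf2* were counted but are not printed, nor is the *Idi1* window. These matches are a description of letters in a window and do not show binding.

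Cells were barcodes with at least 500 UMIs and at most 20% of UMIs on mitochondrial genes, which left 1856 wild-type and 1622 knockout cells, of median depth 6140 and 5063.5 UMIs. UMIs of all cells in a library were added up and given as counts per 1000000 of that library's UMIs (CPM). No test was made, since each condition had 1 library and so no replicate. Intervals are exact Poisson intervals for a level, exact conditional binomial intervals for a ratio and exact binomial intervals for a share, at 95%, and they cover counting error only. The genotype cannot be told apart from any other difference between the 2 cultures. *Lin28a* was at 107 CPM in WT_ES and 36.6 CPM in AKO_ES, a ratio of 0.343 (0.304 to 0.387), so the library labelled knockout was lower but not at 0, and a UMI does not show whether its transcript carries the edit. Of the ES markers, 10 of 10 had UMIs in the cells of both libraries, and their sum was 4852 CPM in wild-type and 4907 CPM in knockout cells once fibroblast-like cells were set aside.

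Summed over the 8 genes and all cells, the libraries differed by less than counting error, but 6 of the single genes differed by more. The sum holds *Fdps*, whose level is uncertain, and within some groups of cells described below it differed by more than counting error. The sum was 843 CPM (826 to 860) in wild-type and 860 CPM (841 to 879) in knockout cells, a knockout over wild-type ratio of 1.02 (0.990 to 1.05), and ratios below are given in that direction unless stated otherwise. *Idi1*, *Hmgcs1* and *Sqle* were lower in the knockout library, *Srebf2*, *Fdft1* and *Fdps* were higher, and the intervals of *Cyp51* and *Insig1* held 1. The median ratio of the 8 was 0.984, beside 1.01 over all 9835 genes with at least 200 UMIs.

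Among the early steps, *Hmgcs1* encodes the cytosolic HMG-CoA synthase, an early enzyme of the mevalonate pathway (chromosome 13 from 119690379 to 119708260, plus strand, GRCm38). It had 91.1 CPM in wild-type and 62.6 CPM in knockout cells, a ratio of 0.688 (0.621 to 0.761). *Idi1* encodes the isomerase that interconverts the 5-carbon isoprenoid units (chromosome 13 from 8885501 to 8892451, plus strand). It had 168 CPM in wild-type and 110.3 CPM in knockout cells, a ratio of 0.656 (0.608 to 0.708). Both genes were thus lower in the knockout library by more than their counting error. *Fdps* encodes farnesyl diphosphate synthase, which joins these units (chromosome 3 from 89093588 to 89101959, minus strand). It had 164 CPM in wild-type and 195 CPM in knockout cells, a ratio of 1.19 (1.11 to 1.27), values that near-identical copies of the gene make uncertain.

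Of the enzymes committed to sterols, *Fdft1* encodes squalene synthase (chromosome 14 from 63145150 to 63179578, minus strand), and it had 144 CPM in wild-type and 173 CPM in knockout cells, a ratio of 1.20 (1.12 to 1.28). *Sqle* encodes squalene epoxidase, a rate-limiting step after squalene (chromosome 15 from 59315077 to 59331192, plus strand). It had 50.8 CPM in wild-type and 39.5 CPM in knockout cells, a ratio of 0.778 (0.681 to 0.888). Squalene synthase and squalene epoxidase, which act one after the other, lay on opposite sides of 1. *Cyp51* encodes lanosterol 14-alpha-demethylase (chromosome 5 from 4081145 to 4104746, minus strand). It had 62.9 CPM in wild-type and 60.7 CPM in knockout cells, a ratio of 0.965 (0.863 to 1.08).

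The regulators also differed from each other. *Insig1*, whose product holds SCAP in the endoplasmic reticulum and which is itself an SREBP2 target (chromosome 5 from 28071363 to 28078662, plus strand), had 58.3 CPM in wild-type and 58.5 CPM in knockout cells, a ratio of 1.003 (0.895 to 1.12). *Srebf2* (chromosome 15 from 82147181 to 82205379, plus strand) had 104 CPM in wild-type and 160.3 CPM in knockout cells, a ratio of 1.54 (1.43 to 1.67). A ratio of 1.5-fold or more either way was reached by 2 of the 8 genes, where 14.9% of the 9835 genes reached it. These were *Srebf2* upward, beside 6.49% of all genes, and *Idi1* downward, beside 8.45%. Under median of ratios scaling the 2 were *Idi1* and *Hmgcs1*, at 0.634 and 0.664, and *Srebf2* had 1.49. An interval wholly above 1 was found for 3 of the 8 and for 29.9% of all genes, and one wholly below 1 for 3 of the 8 and for 29.2% of all genes, so the 8 genes stood near the background of these libraries. *Srebf2* had a ratio that 5.13% of genes reached or passed, and *Idi1* one that 7.68% of genes were at or below.

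**Figure D1:**
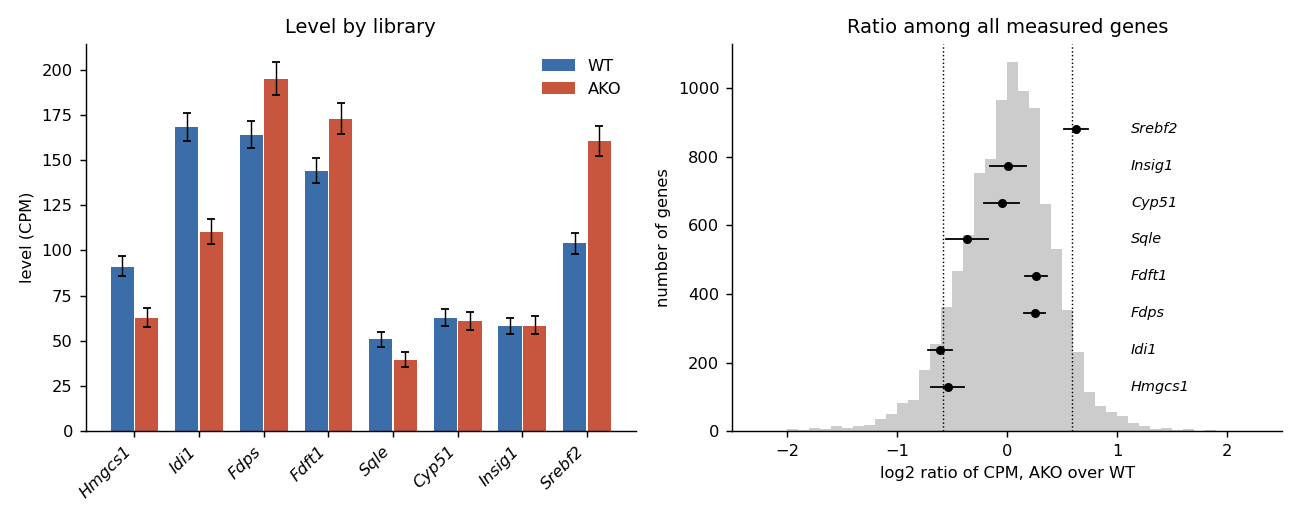
The left panel gives the level of each of the 8 genes (CPM) in the wild-type (WT) and knockout (AKO) library as bars with 95% Poisson intervals. The right panel gives the log2 ratio of knockout over wild-type CPM of the 8 genes as points with 95% intervals over a histogram of the 9835 genes with at least 200 UMIs, with dotted lines at 1.5-fold; *Srebf2* lies past the upper line and *Idi1* just past the lower one.

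In single cells the genes were sparse. *Fdps*, the gene seen most widely, had a UMI in 53.6% (51.3 to 55.9) and 50.4% (48.0 to 52.9) of the cells, wild-type first, and *Sqle*, the one seen least, in 24.5% (22.5 to 26.5) and 16.2% (14.5 to 18.1). A cell held a median of 5 UMIs of the 8 genes together in WT_ES and 3 in AKO_ES, 10.1% and 20.3% of cells held none, and all 8 genes were seen in 13 and 21 cells. With every cell taken to 500 UMIs, *Idi1* was expected in 7.39% and 4.32% of the cells, *Hmgcs1* in 4.2% and 2.69%, *Srebf2* in 5.20% and 8.26%, *Cyp51* in 3.03% and 2.41% and *Insig1* in 2.81% and 2.16%. This evens out the UMIs drawn per cell but not the mix of shallow and deep cells, which differs between the libraries. *Cyp51* and *Insig1* were thus expected in a smaller share of knockout cells at 500 UMIs per cell, while the CPM of each differed by less than counting error. No cell type here is known to lack these genes, so the share that free RNA gives was not measured.

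The libraries were also compared within depth. For the sum of the 8 genes the ratio was 1.05 (0.963 to 1.15) at 2000 to 5000 UMIs, 0.945 (0.905 to 0.987) at 5000 to 10000 and 1.09 (1.03 to 1.15) from 10000. It was 1.44 (1.05 to 2.00) at 500 to 1000 UMIs and 1.12 (0.831 to 1.54) at 1000 to 2000. In cells of 2000 to 5000, 5000 to 10000 and from 10000 UMIs, the ratio of *Idi1* was 0.454 (0.343 to 0.596), 0.566 (0.502 to 0.637) and 0.779 (0.686 to 0.885). That of *Hmgcs1* was 0.415 (0.291 to 0.581), 0.621 (0.528 to 0.728) and 0.804 (0.676 to 0.958). Over these 3 depths the ratio of both genes was nearer to 1 in deeper cells. *Insig1* lay below 1 at 2000 to 5000 UMIs and above 1 from 10000 UMIs, with 0.549 (0.360 to 0.817), 0.884 (0.743 to 1.05) and 1.42 (1.15 to 1.76). *Cyp51* had 1.12 (0.786 to 1.59), 0.711 (0.594 to 0.847) and 1.23 (1.01 to 1.5). *Sqle* was lower in the first 2 groups but not beyond counting error in the deepest, with 0.544 (0.341 to 0.844), 0.637 (0.513 to 0.786) and 0.909 (0.725 to 1.14). *Srebf2* was above 1 at all 3 depths, with 1.85 (1.49 to 2.32), 1.55 (1.39 to 1.73) and 1.49 (1.28 to 1.73). So were *Fdps*, with 1.71 (1.42 to 2.06), 1.14 (1.04 to 1.25) and 1.15 (1.02 to 1.30), and *Fdft1*, with 1.37 (1.12 to 1.67), 1.16 (1.05 to 1.28) and 1.20 (1.05 to 1.36). In cells of 500 to 1000 and 1000 to 2000 UMIs the intervals were wide. *Fdps* had 2.67 (1.25 to 6.55) and 1.82 (0.848 to 4.48) and *Insig1* 1.39 (0.249 to 14.1) and 0.237 (0.0592 to 0.866), while the intervals of the other 6 genes held 1 in both groups, among them *Idi1* with 1.19 (0.476 to 3.38) and 0.994 (0.343 to 3.50) and *Hmgcs1* with 1.05 (0.292 to 4.65) and 2.65 (0.623 to 23.8). With every cell weighted equally, the ratio of *Insig1* was 0.769 and that of *Cyp51* 0.793.

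Other genes of the pathway were read from 5 lists of 44 genes, 39 of which had at least 200 UMIs. Of the 39, 2 were at least 1.5-fold higher and 2 at least 1.5-fold lower in the knockout library, beside 6.49% and 8.45% of all genes, while 15 had an interval above 1 and 7 one below 1, beside 29.9% and 29.2%. Among the 16 other synthesis enzymes, 8 had an interval above 1 and 2 one below 1. *Hsd17b7*, a late step, was lower with a ratio of 0.558 (0.440 to 0.704). *Mvd*, the mevalonate diphosphate decarboxylase, was higher with a ratio of 1.79 (1.46 to 2.20). Of the 5 genes for sterol sensing and SREBP processing, *Scap* had a ratio of 1.86 (1.47 to 2.35) and *Insig2*, the second INSIG gene, one of 0.737 (0.577 to 0.938).

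Within each library the 8 genes did not all go the same way with RP share, the percentage of UMIs that a cell had on 83 genes of ribosomal proteins, which are central to the study. In cells with an RP share of at least 15%, 5 genes were far lower than in cells of 5 to 10%, and the other 3 were higher, in both libraries. The 193 wild-type and 315 knockout cells of at least 15% made up 10.4% (9.05 to 11.9) and 19.4% (17.5 to 21.4) of cells. A median of 0.158% and 0.251% of their UMIs were mitochondrial, where cells of 5 to 10% RP share had 1.64% and 2.40%, and its part in the result was not tested.

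*Insig1* had 75.7 CPM in wild-type cells of 5 to 10% RP share, 45.2 CPM at 10 to 15% and 8.37 CPM from 15%, and 98.7, 44.6 and 6.69 CPM in the same knockout cells. Its ratio of the RP-rich over the 5 to 10% cells was 0.111 (0.0585 to 0.191) in WT_ES and 0.0678 (0.0358 to 0.117) in AKO_ES. *Hmgcs1* had 122, 60.3 and 16.1 CPM in wild-type and 100.2, 46.2 and 13.9 CPM in knockout cells over the same steps, with ratios of 0.132 (0.0848 to 0.196) and 0.139 (0.0903 to 0.205). Over these 3 groups, each step up in RP share thus came with a lower level of both genes in both libraries. *Idi1* had 218, 122 and 44.4 CPM in wild-type and 159, 104.5 and 31.4 CPM in knockout cells, with ratios of 0.204 (0.158 to 0.260) and 0.197 (0.149 to 0.257). For *Cyp51* the ratios were 0.213 (0.136 to 0.318) and 0.195 (0.133 to 0.278), and for *Sqle* 0.228 (0.140 to 0.354) and 0.234 (0.148 to 0.354).

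The other 3 genes went the opposite way. *Fdps* had 134, 177 and 279 CPM in wild-type and 132, 209.7 and 318 CPM in knockout cells, with ratios of 2.08 (1.85 to 2.33) and 2.41 (2.15 to 2.72). Its near-identical copies were not counted by RP share, so these values are uncertain. *Fdft1* had ratios of 1.54 (1.35 to 1.75) and 1.43 (1.26 to 1.62). *Srebf2* had ratios of 1.44 (1.23 to 1.68) and 1.26 (1.11 to 1.44). Over all genes, the interval of this ratio was below 1 for 46.2% in WT_ES and 48.4% in AKO_ES and above 1 for 29.2% and 28.5%, with a median ratio of 0.770 and 0.736. Of the 8 genes, 5 had an interval below 1 and 3 one above 1 in both libraries, counts not far from these shares. A ratio of 0.25 or less, a limit not planned beforehand, was found for the same 5 of the 8 genes in both libraries. It was found for 13.9% and 16.9% of all genes. Many genes thus differed between these cells, and the 5 were among the lower ones.

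**Figure D2:**
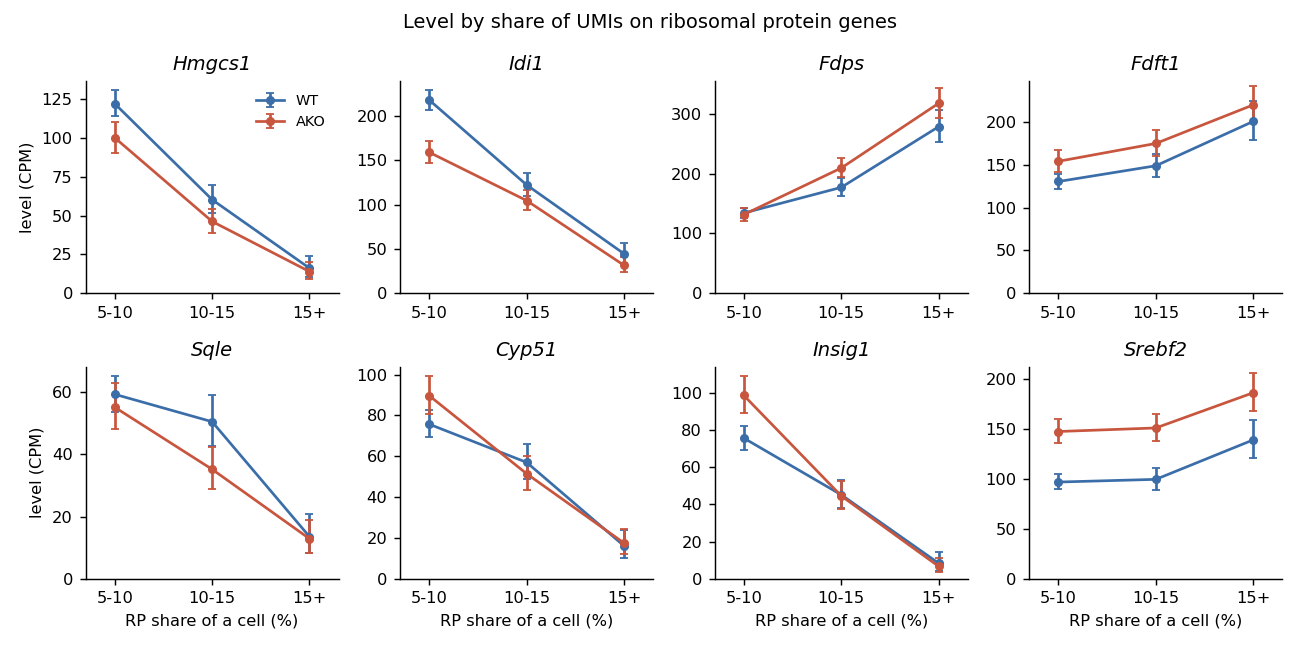
Each panel gives 1 gene's level (CPM) in cells grouped by RP share, 5 to 10%, 10 to 15% and from 15%, in the wild-type (WT) and knockout (AKO) library, with 95% Poisson intervals. *Hmgcs1*, *Idi1*, *Sqle*, *Cyp51* and *Insig1* go down with RP share in both libraries and *Fdps*, *Fdft1* and *Srebf2* go up. The values of *Fdps* are uncertain, since its near-identical copies were not counted by RP share.

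Other genes of the pathway were read in the same cells. Of the 16 other synthesis enzymes, 8 had an interval below 1 in WT_ES and 7 in AKO_ES, beside 46.2% and 48.4% of all genes. An interval above 1 was found for 7 and 5 of them, beside 29.2% and 28.5%. The counts below 1, and that above 1 in AKO_ES, lay near these shares. *Msmo1*, a methylsterol oxidase that acts later in the pathway than *Cyp51*, had ratios of 0.108 (0.0634 to 0.171) and 0.0830 (0.0516 to 0.127). *Mvk*, the mevalonate kinase, had 2.78 (2.00 to 3.83) and 3.33 (2.43 to 4.60), and *Ebp*, a sterol isomerase, 2.44 (1.98 to 2.99) and 2.28 (1.88 to 2.77). *Srebf1*, which encodes the sister factor of SREBP2, had 1.94 (1.58 to 2.38) and 1.94 (1.57 to 2.39), while *Insig2* had 0.286 (0.121 to 0.581) and 0.240 (0.0925 to 0.525). Of 9 fatty acid synthesis genes with enough UMIs, 6 and 7 had an interval below 1 and 0 had one above 1, beside the same shares of all genes, among them *Acly*, which makes cytosolic acetyl-CoA, with 0.113 (0.0535 to 0.209) and 0.115 (0.0637 to 0.194). The ES markers summed to 5485 CPM in the RP-rich and 4518 CPM in the 5 to 10% wild-type cells, and to 5290 and 4767 CPM in the knockout cells. The 16 fibroblast markers summed to 993 and 2246 CPM in these wild-type and to 1043 and 1228 CPM in these knockout cells, and their part in the result was not tested.

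Because the knockout library held a larger share of RP-rich cells, the libraries were also set side by side within RP share. The summed ratio of the 8 genes was 1.03 (0.985 to 1.07) at 5 to 10%, 1.07 (1.02 to 1.14) at 10 to 15% and 1.12 (1.04 to 1.22) from 15%. In cells of 5 to 10%, *Idi1* had a ratio of 0.729 (0.664 to 0.801), *Hmgcs1* 0.820 (0.726 to 0.925) and *Sqle* 0.930 (0.786 to 1.10). In cells of 10 to 15% all 3 were lower in the knockout library, with 0.855 (0.734 to 0.996), 0.767 (0.612 to 0.960) and 0.697 (0.540 to 0.897), and from 15% their intervals held 1, with 0.706 (0.492 to 1.01), 0.863 (0.482 to 1.55) and 0.951 (0.511 to 1.79). *Insig1* and *Cyp51*, whose library ratios held 1, were higher in knockout cells of 5 to 10%, with 1.30 (1.14 to 1.49) and 1.18 (1.03 to 1.36). In cells of 10 to 15% and from 15% the intervals of both held 1, with 0.987 (0.773 to 1.26) and 0.799 (0.341 to 1.87) for *Insig1* and 0.902 (0.723 to 1.13) and 1.09 (0.630 to 1.90) for *Cyp51*. *Fdps* had 0.981 (0.880 to 1.09) in cells of 5 to 10%, and 1.18 (1.05 to 1.33) and 1.14 (1.01 to 1.29) in cells of 10 to 15% and from 15%. *Srebf2* had 1.52 (1.36 to 1.70), and 1.52 (1.31 to 1.76) and 1.34 (1.13 to 1.59) in the 2 groups of higher RP share, and *Fdft1* had 1.18 (1.06 to 1.31), 1.18 (1.04 to 1.33) and 1.10 (0.945 to 1.27). Without the cells from 15% or with only those of 5 to 10% RP share, 1 gene in place of 2 reached 1.5-fold, and it was *Srebf2*. The share of all genes that reached it was not taken in these cells.

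The 91 wild-type and 240 knockout cells under 5% RP share had few UMIs, with medians of 830 and 1193 per cell, and held 47 and 211 UMIs of the 8 genes. In WT_ES the summed level was 481 CPM (353 to 639) in these cells and 846 CPM in the others, and in AKO_ES 634 CPM (552 to 726) and 868 CPM, ratios of the low over the other cells of 0.568 (0.417 to 0.756) and 0.731 (0.634 to 0.838). With cells of at least 2000 UMIs alone these were 0.683 (0.382 to 1.13), whose interval holds 1, and 0.775 (0.615 to 0.965). With a limit of 10% in place of 5% the order turned, with ratios of 1.21 (1.17 to 1.27) and 1.12 (1.07 to 1.17), since the low side then held the cells of 5 to 10%. For the limit of 5%, the median ratio over all genes was 0.760 in WT_ES and 0.873 in AKO_ES. By gene, 3 of the 8 had an interval below 1 in WT_ES and 4 in AKO_ES, where 14.8% and 26.3% of all genes did. In both libraries these held *Idi1* (0.181 and 0.346), *Fdps* (0.186 and 0.485) and *Fdft1* (0.353 and 0.565), and in AKO_ES also *Insig1*. The wild-type values of *Idi1*, *Fdps* and *Fdft1* rest on 3, 3 and 5 UMIs in the cells under 5%. Their intervals were 0.0373 to 0.530, 0.0383 to 0.544 and 0.114 to 0.825. *Srebf2* alone of the 8 had an interval above 1 in the knockout library, at 246 CPM in the cells under 5% and 157 CPM in the others, a ratio of 1.57 (1.24 to 1.96), where 27% of all genes had such an interval. In the wild-type library its values were 174 and 103 CPM, the interval of the ratio, 1.68 (0.977 to 2.71), held 1, and 0 of the 8 genes but 14% of all genes had one above 1. *Insig1*, on 2 UMIs in each library, was at 20.4 and 6.01 CPM in the cells under 5%. Its ratios were 0.349 (0.0422 to 1.27) in WT_ES, whose interval holds 1, and 0.0995 (0.0120 to 0.361) in AKO_ES. *Hmgcs1* was at 40.9 and 48.1 CPM, so both genes were below their level in cells of 5 to 10%. The *Hmgcs1* ratios over all other cells, 0.447 (0.122 to 1.15) and 0.761 (0.432 to 1.25), had intervals that hold 1. The median mitochondrial share was 4.32% and 5.97% in the cells under 5% and 1.30% and 1.36% in the others, and the ES markers summed to 1932 and 2853 CPM, against 4518 and 4767 CPM in cells of 5 to 10%. In the cells under 5% the 16 fibroblast markers summed to 12075 and 2681 CPM, and in those of 5 to 10% to 2246 and 1228 CPM, wild-type first, and the part of these values in the result was not tested.

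Fibroblast-like cells were those with at least 3 UMIs and at least 0.5% of UMIs on *Col1a1*, *Col1a2* and *Col3a1*, 41 wild-type and 21 knockout cells. These 3 collagen genes are among the 16 fibroblast markers and were fixed by the choice of cells. The 13 other markers were all higher than in the remaining cells, with sums of 15636 and 781 CPM in WT_ES and 11619 and 779 CPM in AKO_ES, while ES markers summed to 973 and 4852 CPM in WT_ES and 984 and 4907 CPM in AKO_ES. Of the 10 ES markers, 1 was higher in the wild-type fibroblast-like cells, *Klf4* with 718 and 582 CPM, and 0 were in the knockout ones. In the same order, 6 primitive endoderm markers summed to 98.3 and 9.97 CPM in WT_ES and 9.20 and 13.1 CPM in AKO_ES. Of these 6, 5 had 0 UMIs in the knockout fibroblast-like cells. In the wild-type ones 4 of the 6 were higher than in the other cells, and 2, *Gata4* and *Sox17*, had 0 UMIs. *Gata6* alone had 66.3 CPM there, on 27 UMIs. The 8 genes together were lower in fibroblast-like cells than in the other cells of both libraries. Their sum was 435 CPM (373 to 504) in fibroblast-like and 858 CPM in the other cells of WT_ES, and 460.0 CPM (341 to 606) and 864 CPM in AKO_ES, ratios of 0.507 (0.434 to 0.588) and 0.532 (0.395 to 0.702). The median ratio over all genes was 0.788 in WT_ES and 0.765 in AKO_ES.

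The lower level was not shared by all 8. In wild-type cells *Fdps* had a ratio of 0.337 (0.213 to 0.507), *Hmgcs1* 0.343 (0.182 to 0.589), *Insig1* 0.371 (0.169 to 0.709), *Idi1* 0.372 (0.242 to 0.546), *Fdft1* 0.417 (0.269 to 0.618) and *Srebf2* 0.559 (0.357 to 0.836). *Sqle*, with 68.8 CPM in fibroblast-like and 50.1 CPM in the other cells, had 1.37 (0.904 to 2.01), and *Cyp51*, with 71.3 and 62.6 CPM, had 1.14 (0.757 to 1.65). An interval below 1 was thus found for 6 of the 8 genes, beside 32.2% of all genes. In the knockout library, where the fibroblast-like cells held 50 UMIs of the 8 genes, all 8 ratios were below 1, as were those of 61.8% of all genes, but only *Fdft1* with 0.370 (0.148 to 0.764) and *Srebf2* with 0.456 (0.197 to 0.901) had an interval that left out 1, beside 11.9% of all genes. These knockout cells had a median of 2295 UMIs and a median RP share of 2.98%, against 9273 UMIs and 7.22% in the wild-type ones. Leaving out the fibroblast-like cells moved no ratio between the libraries by more than its counting error.

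**Figure D3:**
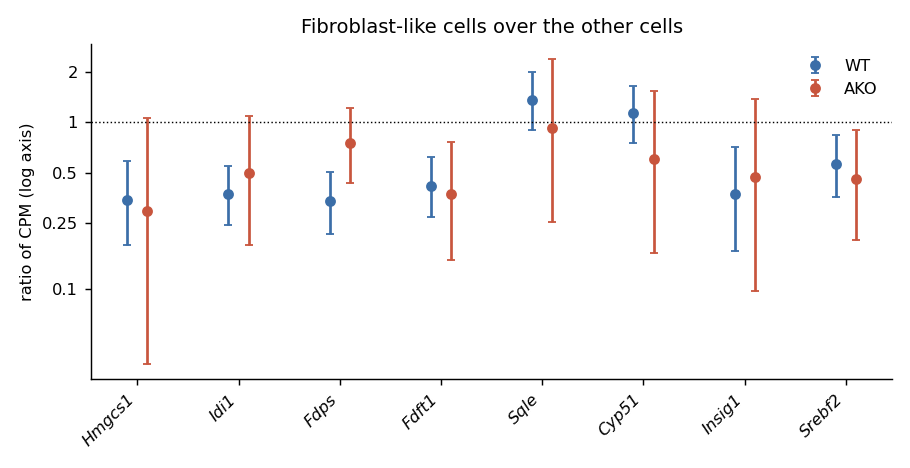
The ratio of CPM in fibroblast-like cells over all other cells is given for each of the 8 genes on a log axis with 95% intervals, in the wild-type (WT) and knockout (AKO) library, and the dotted line marks 1. In the wild-type library *Sqle* and *Cyp51* lie above the line and the other 6 genes below it.

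Over single cells of at least 2000 UMIs, 1642 wild-type and 1110 knockout, the same 5 genes that were low in RP-rich cells had small positive correlations with each other. Pearson's r was taken on ln(1 + UMIs per 10000) and is a description over cells that share a library, without a p. The 5 are *Hmgcs1*, *Idi1*, *Sqle*, *Cyp51* and *Insig1*, grouped after their values were seen, and their 10 pairs had a median r of 0.127 (from 0.0628 to 0.225) in WT_ES and 0.175 (from 0.113 to 0.249) in AKO_ES. *Hmgcs1* and *Idi1* had the highest r of the wild-type library, 0.225, and 0.190 in the knockout library, and *Idi1* and *Insig1* the highest of the knockout library, 0.249. Between the 5 genes and *Fdps*, *Fdft1* or *Srebf2* the 15 pairs had a median r of 0.00105 and -0.000462. *Fdps* and *Fdft1* had an r of 0.114 and 0.108 with each other.

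Of the 28 pairs, 9 in WT_ES and 11 in AKO_ES had an r of at least 0.1, and 8 pairs did in both, where 2.56% and 8.3% of all pairs of 6558 genes did. The r values are small and the counts sparse. With every cell thinned to 2000 UMIs, 1 pair was left in each library, and the median r of the 10 pairs was 0.0616 (from -0.0306 to 0.109) and 0.0429 (from -0.0337 to 0.107). With RP share, the r over cells was -0.306 and -0.295 for *Hmgcs1*, -0.333 and -0.277 for *Idi1*, -0.150 and -0.184 for *Sqle*, -0.191 and -0.278 for *Cyp51* and -0.225 and -0.283 for *Insig1*. It was 0.233 and 0.305 for *Fdps*, 0.160 and 0.138 for *Fdft1* and 0.101 and 0.00411 for *Srebf2*, so in AKO_ES *Srebf2* had an r near 0. Total UMIs in AKO_ES had an r of 0.169 to 0.285 with the 5 genes and of 0.0459, 0.119 and 0.0699 with *Fdps*, *Fdft1* and *Srebf2*, and in WT_ES of 0.0165 to 0.0866 with the 5 and of 0.0973 to 0.116 with the 3. The part of depth in these r values was not tested beyond the thinning. Without the cells from 15% RP share, the median r of the 10 pairs was 0.0956 and 0.114, and in cells of 5 to 10% RP share 0.0746 and 0.0875, with 5 and 7 of the 28 pairs at 0.1 or more. The share of all pairs was not taken after thinning or in these cells. The median r between the 5 genes and the other 3 was 0.0426 and 0.0441 without the cells from 15% and 0.0405 and 0.0457 in those of 5 to 10%, so the 2 sets of genes lay closer together in these cells.

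**Figure D4:**
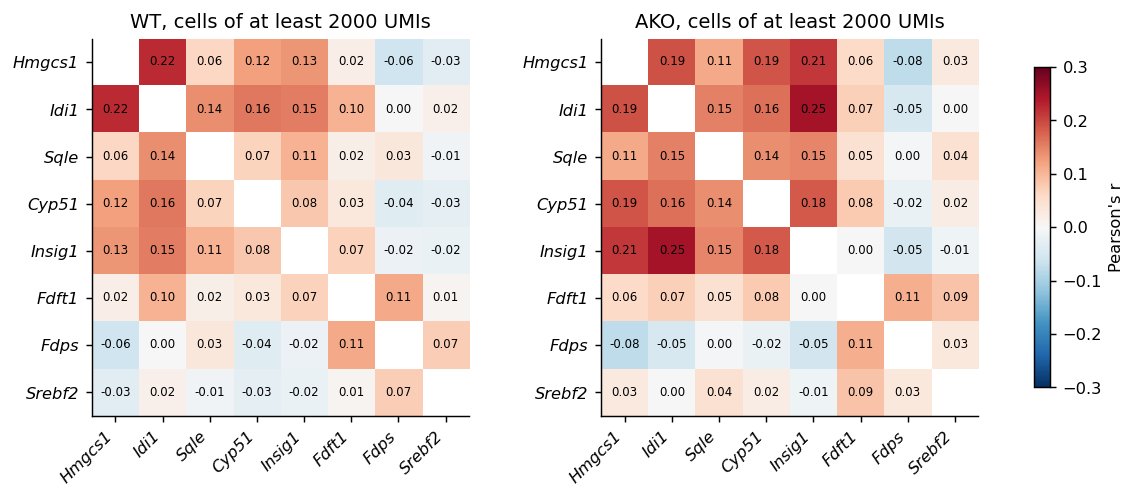
Each square gives Pearson's r between 2 of the 8 genes over cells of at least 2000 UMIs, on ln(1 + UMIs per 10000), 1642 wild-type (WT) cells at left and 1110 knockout (AKO) cells at right. The block of *Hmgcs1*, *Idi1*, *Sqle*, *Cyp51* and *Insig1* holds values from 0.0628 to 0.225 and from 0.113 to 0.249, and squares between it and the other 3 genes from -0.0604 to 0.104 and from -0.0760 to 0.0774, wild-type first.

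To read 1 gene without its own counts, cells were put in terciles, 3 groups of equal number, by the summed share of the other 7 genes. *Idi1* had 129 CPM in the bottom and 221 CPM in the top tercile of wild-type cells, a top over bottom ratio of 1.70 (1.52 to 1.91), and 84.8 and 129 CPM in knockout cells, a ratio of 1.52 (1.29 to 1.81). *Sqle* had 39.4 and 59.2 CPM in wild-type cells, a ratio of 1.5 (1.21 to 1.86), and 24.0 and 52.5 CPM in knockout cells, a ratio of 2.19 (1.63 to 2.98). *Fdft1* was also higher in the top tercile, with ratios of 1.25 (1.11 to 1.41) and 1.27 (1.12 to 1.45). *Fdps* and *Srebf2* did not follow the others, with *Fdps* at 0.951 (0.849 to 1.07) and 0.956 (0.849 to 1.08) and *Srebf2* at 0.925 (0.802 to 1.07) and 1.08 (0.948 to 1.24).

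The interval was above 1 for the other 6 genes in both libraries, and for 12.8% of all other genes in WT_ES and 10.1% in AKO_ES in terciles by the sum of all 8 genes, the nearest background that was taken. The median ratio of the 8 was 1.5 and 1.54. A ratio of at least 1.5 was reached by 3 genes in WT_ES and 5 in AKO_ES. In the terciles by the sum of all 8 genes, 2.06% and 3.57% of the other genes reached it. The bottom tercile by that sum held more RP-rich and fibroblast-like cells than the top one, 79 and 26 against 45 and 4 in the wild-type library and 102 and 9 against 89 and 1 in the knockout library. With the RP-rich cells left out, 6 genes in each library had an interval above 1, with a median ratio of 1.44 and 1.63, and with the fibroblast-like cells left out 6 genes did, with 1.46 and 1.49. With each cell thinned to 2000 UMIs the number was 4 in WT_ES and 1 in AKO_ES, and the median ratio was 1.42 and 1.10. In knockout cells of 5000 to 10000 UMIs the number was 3, with a median ratio of 1.38. The share of all genes was not taken in these settings.

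**Figure D5:**
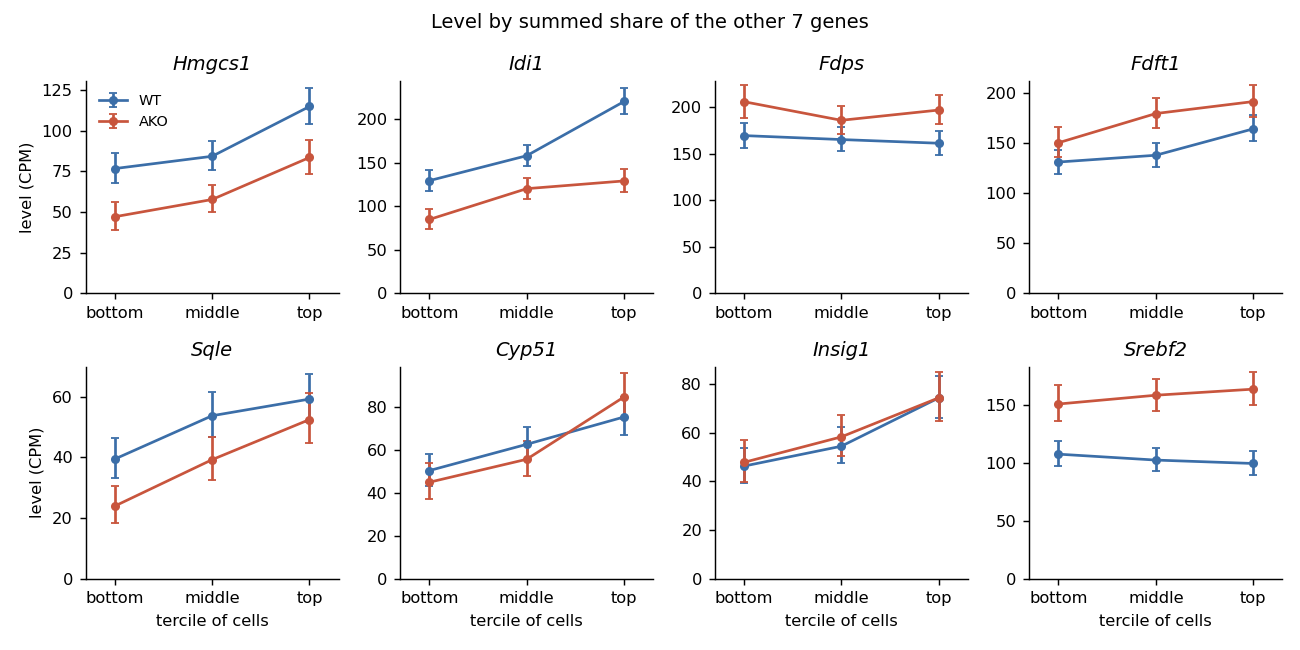
Each panel gives 1 gene's level (CPM) in terciles of cells ordered by the summed share of UMIs of the other 7 genes, in the wild-type (WT) and knockout (AKO) library, with 95% Poisson intervals. *Idi1*, *Hmgcs1*, *Sqle*, *Cyp51*, *Insig1* and *Fdft1* rise from the bottom to the top tercile in both libraries. The top over bottom intervals of *Fdps* and *Srebf2* hold 1.

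Of 6549 other genes, the 10 whose levels went most closely with the sum of the 8, by the smaller r of the 2 libraries, were *Gm3571* (r of 0.286 and 0.320), *Gm5873*, *Gm48326*, *Ptges3*, *Hmgb2*, *Msmo1* (0.201 and 0.187), *Gm8163*, *Pfn1*, *Gm7979* and *Srsf2* (0.214 and 0.166). *Msmo1* is the only enzyme of the pathway among them. From the other lists *Scd2* and *Scd1*, desaturases of fatty acid synthesis, stood at places 21 and 39. An r of at least 0.1 with the sum was found for 3.73% of the genes in WT_ES and 6.85% in AKO_ES.

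*Gm3571*, *Gm5873*, *Gm8163* and *Gm7979* are processed pseudogenes of *Fdps*, 98.9%, 96.7%, 96.1% and 96.7% identical to it over the aligned bases of their GENCODE transcripts. To show how close they are, the last 60 coding bases of *Fdps* before its stop codon and the aligned bases of the 4 copies are printed here, with capitals where a copy differs from *Fdps*.
Fdps: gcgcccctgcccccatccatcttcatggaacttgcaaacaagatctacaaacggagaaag
Gm3571: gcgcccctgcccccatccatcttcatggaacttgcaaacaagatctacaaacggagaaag
Gm5873: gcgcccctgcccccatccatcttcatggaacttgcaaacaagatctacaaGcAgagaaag
Gm7979: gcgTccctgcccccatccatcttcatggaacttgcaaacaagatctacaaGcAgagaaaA
Gm8163: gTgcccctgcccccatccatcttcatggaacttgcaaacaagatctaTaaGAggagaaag

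Reads from these stretches of *Fdps* and *Gm3571* cannot be told apart, since 0 of the 60 bases differ, and 2, 4 and 4 bases differ in *Gm5873*, *Gm7979* and *Gm8163*. Of 598 wild-type cells with a *Gm3571* UMI, 596 also had an *Fdps* UMI (99.7%), against 31.7% of the cells without one, and 533 of 534 knockout cells did (99.8%), against 26.2%. The *Fdps* count was at least as high as that of *Gm3571* in 550 and 502 of these cells. Over cells of at least 2000 UMIs the r of *Gm3571* with *Fdps* was 0.666 and 0.728. The 6 pseudogenes of *Fdps* together had 1907 UMIs in WT_ES and 2161 in AKO_ES, 49.99% and 54.3% of the UMIs on *Fdps* and its copies. With them *Fdps* had a ratio of 1.30 (1.24 to 1.36) in place of 1.19. Whether 1 molecule was counted on several copies is not known, and the interval takes the counts as independent. The sum is therefore not a corrected level, and the level of *Fdps* in these files is uncertain.

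The other genes were less affected. Pseudogenes took 2.73% and 1.44% of the combined UMIs of *Idi1* and 3.01% and 5.22% of those of *Fdft1*, and with them the ratios were 0.647 (0.600 to 0.698) and 1.23 (1.15 to 1.31). *Fdft1* overlaps *Ctsb* and *Cyp51* overlaps *Akap9*, each on the opposite strand, *Fdps* overlaps *Gm43738* on its own strand, and *Hmgcs1* has the antisense gene *Gm48342* with 4 and 7 UMIs. Whether strand was used in counting is not given in the sources used here, so reads of such pairs may not be separated.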

How the data were processed

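Per the methods and labels, the authors made gene-by-barcode matrices from 2 inDrop libraries with a published pipeline and deposited raw UMI counts without normalization. The submitters' processing notes name mm10 and Seurat 2.3.4. The aligner and annotation are not given in the sources used here. Identifiers were named through GENCODE M21, in which 54079 of 54146 matched without their version, and coordinates are from it. The 500 UMI and 20% mitochondrial limits are the study's. Depth was 12079546 UMIs over 4329 barcodes in the wild-type and 10027710 over 6060 in the knockout file. UMIs that the files list as ambiguous between genes were 63462 and 58924.

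CPM, exact intervals, detection at 500 UMIs per cell (hypergeometric), Pearson's r and tercile ratios were computed with Python 3.11.15, numpy 2.4.6, scipy 1.17.1 and pandas 2.3.3, tested on simulated data. Depth sets the intervals, and a gene of fewer than 200 UMIs over both libraries was left out of backgrounds. Doublets were kept, since the methods name no removal, and Scrublet (scanpy 1.11.5) marked 1.35% of wild-type and 0.925% of knockout cells for an alternative. Barcodes are running numbers, so those shared by the libraries could not be counted. Alternatives were other limits for UMIs and mitochondrial share, other denominators, median of ratios scaling, equal weight per cell, and cells left out by collagen, RP share or depth. The genes named are the 8, those of the 5 lists that are described (single values of some list genes are not reported here), and the 10 with the largest r with the sum. The members and lists were chosen with earlier results of these data known. Alternatives by RP share from 15%, or of 5 to 10% only, and with pseudogenes were added after seeing the data.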

Additional observations from a re-analysis of the deposited data

Results flagged for a closer look

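The 8 genes were also seen outside the cells compared, in barcodes under 500 UMIs. The 2472 such wild-type barcodes, with a median of 147 UMIs, held 398 UMIs of the 8 genes, 906 CPM (820 to 1000.1), and the 4423 knockout barcodes, with a median of 129 UMIs, held 582, 865 CPM (796 to 938). These values lie near the 843 and 860 CPM of the kept cells.

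*Fdps* differed with depth in opposite directions in the libraries. Its level in cells of 2000 to 5000 UMIs over cells of 5000 to 10000 UMIs had a ratio of 0.796 in WT_ES and 1.19 in AKO_ES, and the difference between these ratios was not tested.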

How the results depend on the processing

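Of 214 recomputed values, 191 stayed near the reported one, 20 moved and 3 turned, where a ratio was judged by its counting error and a count by 1.5-fold. For 2 of the 191 only the background genes changed, so the count of genes past 1.5-fold could not move. The share of all genes past 1.5-fold was 14.9% with at least 200 UMIs, 19.9% with at least 50 and 45% with at least 1. The summed ratio between the libraries was 0.985 under median of ratios scaling, which shifts all ratios by 0.05 on the log2 scale. The 2 genes past 1.5-fold were then *Idi1* and *Hmgcs1* (0.664), with *Srebf2* at 1.49. The number past 1.5-fold was 3 without cells holding a collagen UMI and 3 as a mean over cells, with *Hmgcs1* at 0.653 and 0.630. It was 1 without cells under 5% RP share, 1 without those from 15% and 1 in cells of 5 to 10%, where *Fdps* turned to 0.981. In these settings the share of all genes past 1.5-fold was not taken. A limit of 10% RP share turned the ratio of low-RP over other cells to 1.21 in WT_ES and 1.12 in AKO_ES, and with at least 2000 UMIs the WT_ES interval (0.382 to 1.13) held 1. Pairs with an r of at least 0.1 were 1 and 1 after thinning to 2000 UMIs and 5 and 7 in cells of 5 to 10% RP share, wild-type first. In the knockout library the genes above 1 in the top over the bottom tercile were 3 in cells of 5000 to 10000 UMIs and 1 after thinning, with median ratios of 1.38 and 1.10. The cause was not tested, though fewer cells or UMIs enter several of these. No replicate was left out and no paired analysis was possible because each condition had 1 library. Depth limits the wild-type cells under 5% RP share and the knockout fibroblast-like cells, with 47 and 50 UMIs of the 8 genes.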
